A study of Homo sapiens with 63 samples.

Results

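Photocaged ibufenac was compared with DMSO at 18 h in HEK293T, an established line of human embryonic kidney cells, by sequencing of total RNA. The comparison took in all 58336 genes of the deposited table and the 6 libraries labelled Ibufenac photocaged 18hr or DMSO 18hr, 3 in each group, out of 63 libraries in the series. Of these genes, 19352 passed the filter on low counts and were tested. All cells expressed Halo, a protein tag that binds a chloroalkane ligand covalently. The series' design text describes loading for 2 h at 10 µM with one of 2 precursors, named Ht-Pre-AG-ibufenac and Ht-Pre-AG-ibuprofen, washes, and 3 min of 365 nm light at 5 mW/cm2 to free the acyl glucuronide. The sources used here do not say what sets the photocaged form apart from the probe form of the same drug, which arms were lit, how much drug a bolus held, or whether replicates were separate cultures, so p-values may measure technical spread only. Photocaged ibufenac at 6 h and 12 h, each with its own DMSO libraries, and photocaged ibuprofen and an ibufenac bolus at 18 h, 3 libraries each, serve here as comparisons.

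Ibufenac is an arylacetic acid drug that lacks the α-methyl group of ibuprofen and was withdrawn because of liver injury. Carboxylic acid drugs are conjugated in the liver to acyl glucuronides, esters that can migrate and react with amino and thiol groups of proteins. Reactive electrophiles modify cysteines of KEAP1 and so free the transcription factor NRF2, which binds antioxidant response elements in the promoters of detoxification genes. ATF4, the transcription factor of the integrated stress response, drives amino acid supply, and XBP1 and ATF6 act in the endoplasmic reticulum's unfolded protein response. HEK293T cells carry the large T antigen of SV40, which binds p53, and are not hepatocytes.

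The 6 libraries held 16 to 20.9 M counts. Vimentin (VIM), the neurofilament NEFL, keratin 18 (KRT18) and EYA1, genes typical of HEK293 cells, were detected in all 6, and PAX2 had 0 to 12 counts. The 8 hepatocyte markers, of which 2 were tested, summed to 3.49 to 3.84 CPM in photocaged libraries and 2.12 to 3.82 CPM in DMSO libraries. Among them TTR, SERPINA1, APOB and FGB were at 0. Albumin (ALB) had 42, 37 and 21 counts against 15, 9 and 0 in DMSO and was not called (edgeR adjusted p = 0.139). Of 7 blood markers, PTPRC, LYZ and HBB were at 0. Of all marker genes of other cell types, 10 passed the filter and none was called. DMSO replicate 3 stood apart from the other DMSO libraries in hypoxia genes, whose mean log2 CPM was 5.13 there and 4.35 and 4.39 in replicates 1 and 2, against 4.15, 4.12 and 4.32 in the photocaged libraries. Protein-coding genes took 78.3%, 75.7% and 74.8% of counts in the photocaged libraries and 70.4%, 70.5% and 71.0% in the DMSO libraries. These groups did not overlap, while photocaged ibuprofen libraries ran from 70.1% to 78.0% at the same time. The part of this share in the results was not tested. In bulk RNA, fewer cells of a kind and less RNA per cell cannot be told apart.

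**Figure D1:**
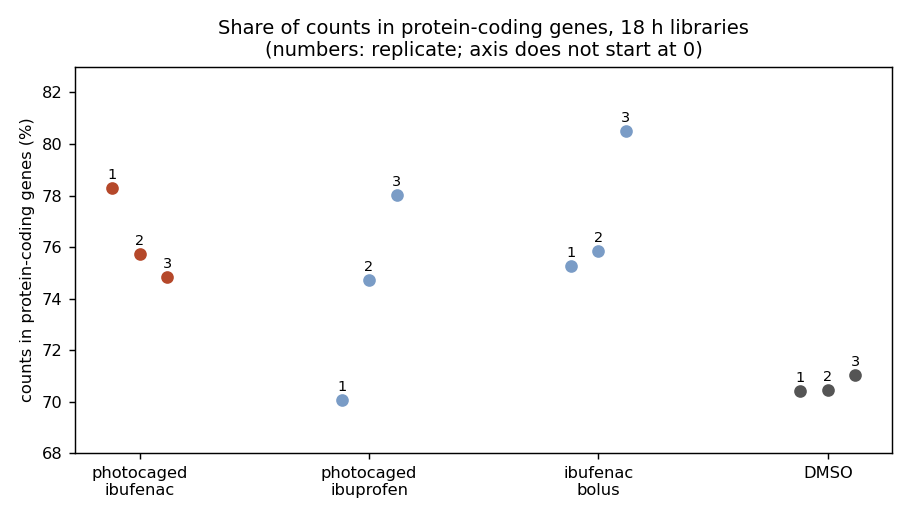
Percent of all counts that fell in protein-coding genes in each 18 h library, with the replicate number above each point (3 libraries a group). The photocaged ibufenac libraries lay between 74.8% and 78.3% and the DMSO libraries between 70.4% and 71.0%; the axis does not start at 0.

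At 18 h, 553 genes differed between photocaged ibufenac and DMSO (2.86% of those tested, edgeR quasi-likelihood test, Benjamini-Hochberg adjusted p under 0.05). Of these, 322 rose (1.66%) and 231 fell (1.19%). Of the 553, 198 genes passed 1.5-fold, of which 69 rose and 129 fell, and 58 passed 2-fold. The median log2 change of the risen genes was 0.38 and that of the fallen genes -0.61. Against the same DMSO libraries, these genes had medians of 0.29 and -0.51 with photocaged ibuprofen, and 0.30 and -0.46 with the ibufenac bolus. The shared DMSO libraries enter all of these values. In 526 of the 553 genes all photocaged libraries lay on one side of all DMSO libraries, which held for 21.5% of all tested genes. The count rested on the libraries used: it was 105 without photocaged replicate 1, 266 without photocaged replicate 2 and 287 without DMSO replicate 3 (1.43%), and 53 genes, 38 higher and 15 lower, were called in every fit that left out 1 of the 6 libraries. It rested also on the estimate of spread shared with the other 57 libraries, since a fit of the 6 libraries alone called 1 gene, which was not among the 553, with 2676 genes at an unadjusted p under 0.05 against 3639 in the fit of all 63. Risen genes were long and poor in GC (median transcript 4578 bases, 41.8% GC) and fallen genes rich in GC (3024 bases, 56.8% GC), beside 3043 bases and 48.3% over all genes. With the trends of each library with GC and length removed, 522 genes were called, 234 higher and 288 lower, of which 309 were among the 553.

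The genes with the smallest p-values held in every fit that left out a library. IRS4, an insulin receptor substrate that is highly expressed in HEK293 cells, had 203, 210 and 235 CPM (counts scaled to the library's total after TMM normalization) with photocaged ibufenac and 348, 305 and 494 CPM with DMSO. It fell by 0.82 ± 0.11 on the log2 scale (SE, n = 3 libraries each, edgeR adjusted p = 8.11e-06), and the groups did not overlap. ARRDC3, an α-arrestin that acts in receptor degradation, had 80.6, 78.3 and 71.0 CPM with photocaged ibufenac and 47.3, 47.0 and 30.4 CPM with DMSO. It rose by 0.88 ± 0.12 (edgeR adjusted p = 8.11e-06), again without overlap. The extracellular protease ADAMTS1 fell (log2 change -0.70 ± 0.10), with 51.4, 48.8 and 46.1 CPM against 69.9, 70.9 and 97.1 CPM in DMSO. The transcription factor SOX4 fell (-0.73 ± 0.10), with 75.8, 69.2 and 80.4 CPM against 104, 112 and 158 CPM in DMSO. In all 4 genes DMSO replicate 3 was the DMSO library farthest from the photocaged ones, and without it the changes were -0.60, 0.70, -0.53 and -0.53, all called.

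RARB, the retinoic acid receptor β, had 4.28, 4.59 and 3.28 CPM with photocaged ibufenac and 7.81, 9.95 and 19.0 CPM with DMSO. It fell by 1.59 ± 0.24 on the log2 scale (edgeR adjusted p = 5.93e-05), and by 1.13 without DMSO replicate 3 (edgeR adjusted p = 0.00999). RARB was also called lower at 6 h (-1.25) and 12 h (-1.81). It was the only one of 19 tested genes of the retinoic acid machinery to be called. The protocadherin PCDH10 had 15.8, 14 and 18.8 CPM against 24.6, 25.4 and 45.3 CPM in DMSO and fell by 0.97 ± 0.15. Among risen genes with the smallest p were GMFB (glia maturation factor β, 0.50 ± 0.08), the membrane adaptor ANK2 (0.52 ± 0.08), the endoplasmic reticulum reductase DNAJC10 (0.45 ± 0.07), KIAA0586 (a centrosomal protein needed for cilia, 0.57 ± 0.09) and METTL15 (a mitochondrial rRNA methyltransferase, 0.60 ± 0.10). DNAJC10 was the tightest of these, with 165, 163 and 164 CPM against 125, 124 and 112 CPM in DMSO.

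**Figure D2:**
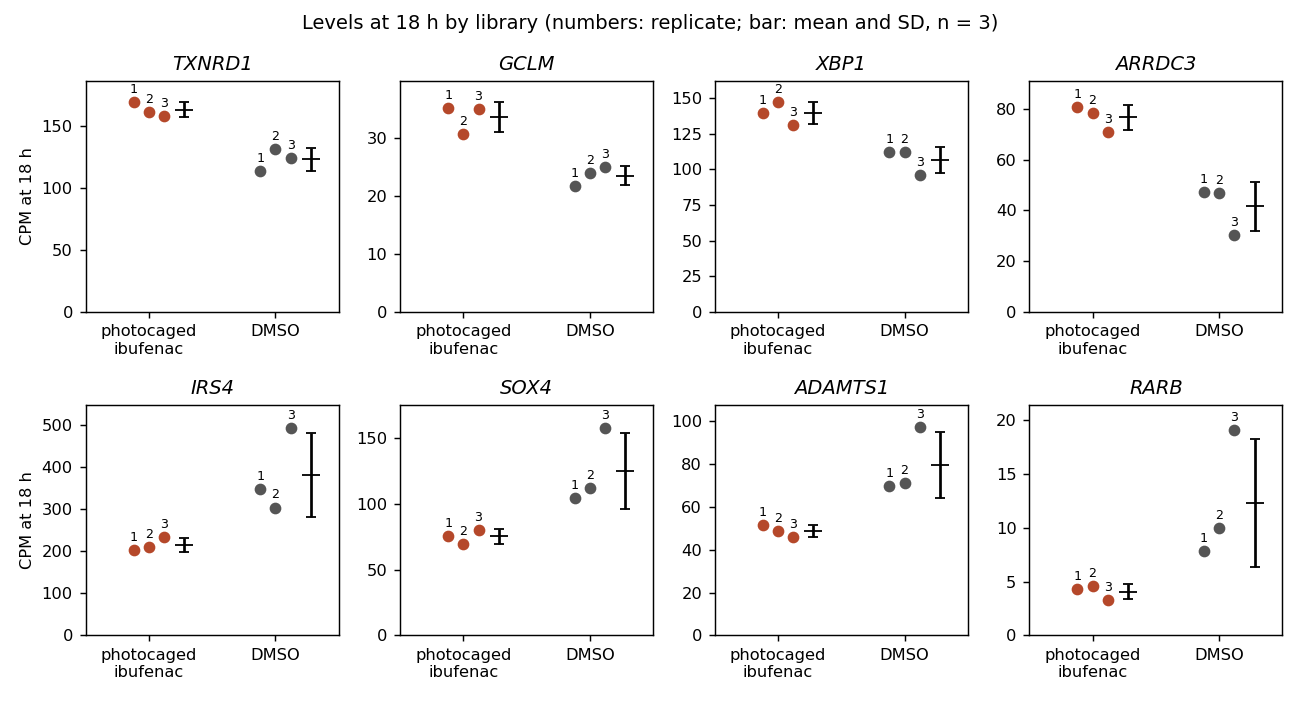
CPM of 8 genes at 18 h in each library (points, replicate number above), with the mean and SD of 3 libraries beside them; photocaged ibufenac stands left and DMSO right. In all 8 genes the photocaged points lie on one side of the DMSO points, and the DMSO spread of IRS4, SOX4, ADAMTS1 and RARB comes mostly from replicate 3.

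The largest log2 changes among called genes belonged to weakly expressed ones. MTUS2-AS1, an antisense RNA, had 2.38, 3.51 and 1.49 CPM with photocaged ibufenac and 0, 0.791 and 0 CPM with DMSO (3.22 ± 0.67). Whether counting used strand is not given, so its reads cannot be told apart from those of its sense partner. MTMR11, a myotubularin-related protein, rose by 1.91 ± 0.44 and the cysteine protease CTSO by 1.62 ± 0.38. At the other end stood ANTKMT, a mitochondrial lysine methyltransferase (-2.23 ± 0.55), PTOV1-AS2, another antisense RNA (-1.79 ± 0.49), and RARB. Of these, MTUS2-AS1 and RARB were called in all 6 fits that left out a library, MTMR11, CTSO and ANTKMT in 4 and PTOV1-AS2 in 2. SLC16A9, a monocarboxylate carrier, rose by 1.17 ± 0.21 with 10.9, 9.94 and 11.4 CPM against 3.45, 6.46 and 4.50 CPM in DMSO, and was also called higher at 6 h (1.02) and 12 h (0.91). MGAM, the maltase-glucoamylase of the intestine, had 6.93, 5.90 and 7.57 CPM with photocaged ibufenac and 3.82, 3.16 and 1.41 CPM with DMSO. It rose by 1.28 ± 0.22, without overlap.

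Of 27 tested NRF2 targets, 5 rose and 1 fell, beside 1.66% and 1.19% of all tested genes. Their median log2 change was 0.14, beside 0.00 over all tested genes. Without DMSO replicate 3 the count was 4 and 0. The risen genes were TXNRD1, thioredoxin reductase; GCLM, the modifier subunit of the enzyme that starts glutathione synthesis; ME1, an NADPH-producing malic enzyme; FTL, the ferritin light chain; and NQO1, a quinone reductase. The fallen gene was TKT, transketolase (-0.52, edgeR adjusted p = 0.0481). The promoters of the 3 risen members that hold an antioxidant response element are shown here from 250 bases before to 50 after the gene start, 5′ to 3′ on the gene's strand (RefSeq, GRCh38.p14), with the element, TGACNNNGC on either strand, in capitals. They lie at chr12:104215529-104215828 on the plus strand (TXNRD1), chr1:93909381-93909680 on the minus strand (GCLM) and chr6:83431002-83431301 on the minus strand (ME1).
TXNRD1: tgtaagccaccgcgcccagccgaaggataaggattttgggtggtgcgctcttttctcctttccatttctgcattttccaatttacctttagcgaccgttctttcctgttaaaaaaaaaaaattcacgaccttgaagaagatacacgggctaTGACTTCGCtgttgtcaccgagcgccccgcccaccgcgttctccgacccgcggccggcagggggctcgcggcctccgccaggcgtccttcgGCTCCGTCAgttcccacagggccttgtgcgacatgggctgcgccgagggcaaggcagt
GCLM: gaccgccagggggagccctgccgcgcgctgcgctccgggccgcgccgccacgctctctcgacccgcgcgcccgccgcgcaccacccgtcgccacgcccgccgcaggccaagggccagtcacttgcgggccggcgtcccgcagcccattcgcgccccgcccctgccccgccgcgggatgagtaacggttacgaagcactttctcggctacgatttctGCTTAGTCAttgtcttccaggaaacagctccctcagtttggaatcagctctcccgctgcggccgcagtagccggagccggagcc
ME1: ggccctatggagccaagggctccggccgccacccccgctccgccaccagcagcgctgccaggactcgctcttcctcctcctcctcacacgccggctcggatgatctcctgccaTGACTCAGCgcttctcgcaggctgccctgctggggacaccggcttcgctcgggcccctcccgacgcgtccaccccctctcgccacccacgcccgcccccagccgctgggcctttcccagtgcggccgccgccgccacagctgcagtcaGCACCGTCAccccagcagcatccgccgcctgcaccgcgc
The element was found in 3 of the 6 called members and in 5 of the 19 tested members with a promoter in the table, against 13.6% of 27305 promoters of the same length. A match of letters describes the window and is not a known site.

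TXNRD1 had 170, 162 and 158 CPM with photocaged ibufenac and 114, 132 and 124 CPM with DMSO. It rose by 0.41 ± 0.06 on the log2 scale (edgeR adjusted p = 5.93e-05), without overlap and in all 6 fits that left out a library. GCLM had 35.0, 30.6 and 35.0 CPM against 21.6, 23.9 and 24.9 CPM in DMSO and rose by 0.52 ± 0.10 (edgeR adjusted p = 0.00297). ME1 had 18.8, 17.8 and 18.8 CPM against 11.8, 10.7 and 13.4 CPM in DMSO and rose by 0.62 ± 0.14 (edgeR adjusted p = 0.00627). These 3 were still called without DMSO replicate 3, and also after removal of GC and length trends. FTL (0.34 ± 0.07), whose reads may be shared with its many processed copies, and NQO1 (1.17 ± 0.28) were not called without DMSO replicate 3 (edgeR adjusted p = 0.0652 and 0.0838). NQO1 was low, at 6.09, 7.73 and 4.59 CPM against 1.85, 4.35 and 1.99 CPM in DMSO. HMOX1, heme oxygenase, had 30.1, 33.3 and 34.4 CPM against 32.4, 33.0 and 23.5 CPM in DMSO, and did not pass the test (0.14 ± 0.15). SRXN1, sulfiredoxin, also did not (0.17 ± 0.10). 

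The change of HMOX1 at 18 h was smaller than at 6 h, when the gene had 57.3, 62.4 and 78.3 CPM with photocaged ibufenac and 24.5, 26.9 and 25.6 CPM with DMSO (1.36 ± 0.15). The 18 h change minus the 6 h change was -1.22 ± 0.21 (95% interval -1.64 to -0.80, edgeR adjusted p = 0.000543). At 12 h HMOX1 was still called higher (1.13). TXNRD1 was called at all 3 times (0.74, 0.52 and 0.41 at 6, 12 and 18 h), and its difference between 18 h and 6 h did not pass the test (-0.33 ± 0.09, edgeR adjusted p = 0.0582). After removal of GC and length trends that difference was called lower (-0.36, edgeR adjusted p = 0.0220). GCLM was likewise called at 6 h (0.83), 12 h (0.57) and 18 h (0.52). ME1 had a different course, with -0.03 at 6 h and calls at 12 h (0.49) and 18 h, although its difference between 18 h and 6 h did not pass (0.65 ± 0.19, edgeR adjusted p = 0.108).

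**Figure D3:**
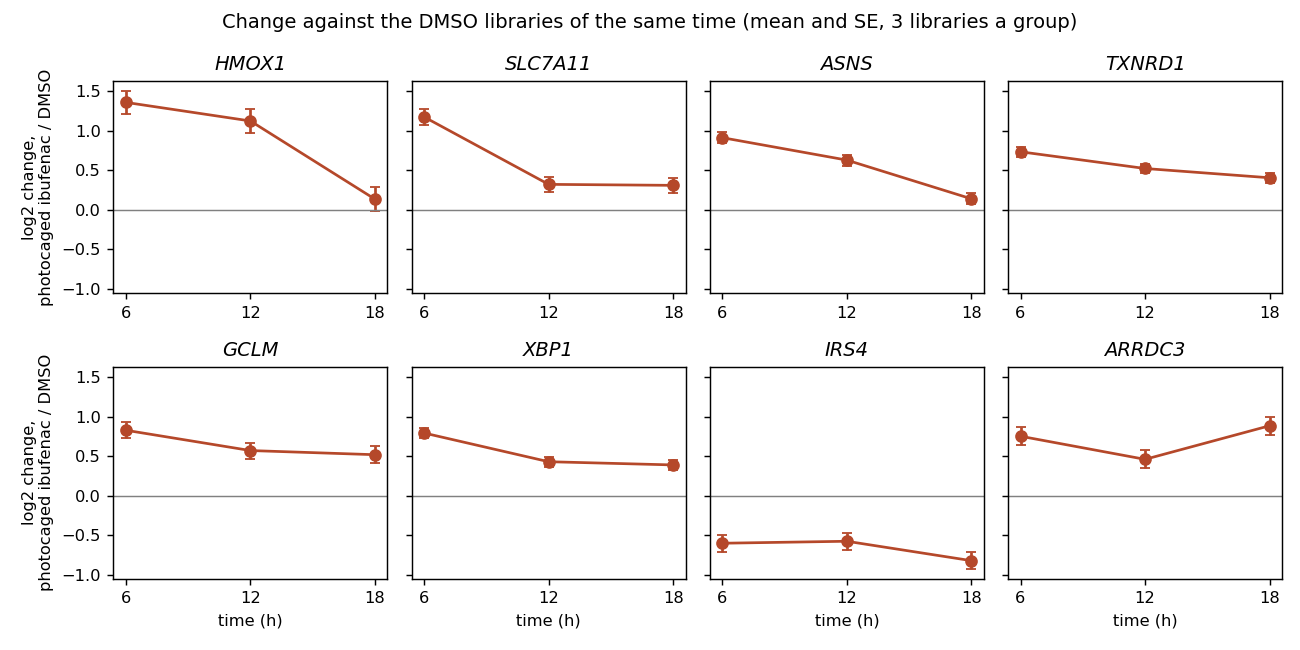
Log2 change of photocaged ibufenac over the DMSO libraries of the same time at 6, 12 and 18 h for 8 genes (points with SE, 3 libraries a group). HMOX1 (1.36), SLC7A11 (1.18) and ASNS (0.91) were high at 6 h and between 0.14 and 0.31 at 18 h, while TXNRD1, GCLM, XBP1, IRS4 and ARRDC3 remained called at 18 h.

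Over all genes, the 18 h change differed from the 6 h change in 123 genes (0.636%), of which 68 were higher and 55 lower at 18 h. This count was 40 without DMSO 6 h replicate 1, 54 without photocaged 6 h replicate 3 and 62 without photocaged 18 h replicate 1. Of the 322 genes that rose at 18 h, 49 were among the 344 that rose at 6 h (1.78% of tested genes), and of the 231 that fell, 24 were among the 243 that fell at 6 h (1.26%). At 12 h, 92 genes rose (0.475%) and 214 fell (1.11%), and they included 19 of the 322 and 33 of the 231. These times have DMSO libraries of their own. Among genes called for this difference that averaged at least 1 CPM, the lowest values belonged to CD24, a glycosylated surface protein (-3.00 ± 0.53), MUC19, a gel-forming mucin (-1.96 ± 0.36), TRIM5, a restriction factor (-1.79 ± 0.43), and CHAC1, which degrades glutathione (-1.51 ± 0.34). CD24 was weakly expressed, at 2.65, 0.890 and 2.74 CPM against 3.08, 2.77 and 4.56 CPM in DMSO at 18 h, and at 1.53, 1.72 and 1.87 CPM against 0.306, 0.428 and 0.310 CPM in DMSO at 6 h. Its reads may be shared with near-identical copies. The highest among the same called genes belonged to SDHAP4, a pseudogene (0.98 ± 0.24), the antisense RNA SLC25A25-AS1 (0.89 ± 0.22), CENPA, the histone H3 variant of centromeres (0.77 ± 0.18), and PPM1H, a protein phosphatase (0.74 ± 0.17).

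None of 35 tested ATF4 targets rose at 18 h and 2 fell, beside 1.66% and 1.19% of all tested genes. The median log2 change of the targets was 0.00. At 6 h 16 of the same genes had risen and none had fallen (median 0.40), and at 12 h 12 had risen and none had fallen (median 0.34). Over all tested genes, 1.78% rose at 6 h and 0.475% at 12 h. The difference between the times was called in 9, all lower at 18 h, beside 0.284% of all tested genes. The 9 included ASNS, SLC7A11, STC2 and CHAC1. ASNS, asparagine synthetase, had 141, 135 and 136 CPM with photocaged ibufenac and 117, 124 and 132 CPM with DMSO at 18 h (0.14 ± 0.07, edgeR adjusted p = 0.272). At 6 h it had 254, 246 and 227 CPM against 132, 123 and 131 CPM in DMSO, and the difference between the changes was -0.77 ± 0.10 (edgeR adjusted p = 7.77e-06). SLC7A11, the cystine importer, had 108, 94.5 and 103 CPM against 71.4, 83.2 and 91.5 CPM in DMSO at 18 h. Its groups did not overlap, but it did not pass the test (0.31 ± 0.10, edgeR adjusted p = 0.0658), against 1.18 at 6 h (difference -0.87 ± 0.14, edgeR adjusted p = 0.000195). The pseudokinase TRIB3 (0.17 ± 0.10), the transcription factor DDIT3 (-0.17 ± 0.12) and ATF4 itself (0.02 ± 0.06) did not pass at 18 h. The 2 fallen targets were the glycoprotein hormone STC2 (-0.52 ± 0.11) and DDIT4, an mTORC1 inhibitor (-0.61 ± 0.16), both also induced by hypoxia. Neither was called without DMSO replicate 3 (-0.29 and -0.37). In that fit 2 other targets were called higher, SLC7A11 (0.40, edgeR adjusted p = 0.0452) and the tRNA exporter XPOT (0.33, edgeR adjusted p = 0.0163), and CHAC1 was called lower (-1.04). After removal of GC and length trends 2 were called higher, TRIB3 (0.44) and the stress protein SESN2 (0.39), and 1 lower, STC2 (-0.52).

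Of 24 tested genes of the unfolded protein response, 3 rose at 18 h and none fell, beside 12 risen at 6 h. Over all tested genes, 1.66% rose at 18 h and 1.78% at 6 h. XBP1, the transcription factor spliced by IRE1, had 140, 147 and 131 CPM with photocaged ibufenac and 112, 112 and 96.0 CPM with DMSO. It rose by 0.39 ± 0.06 (edgeR adjusted p = 0.000259) in all 6 fits that left out a library, less than at 6 h (0.79, difference -0.40 ± 0.09, edgeR adjusted p = 0.0178). The lectin chaperone CANX (0.25 ± 0.06) and the stress sensor ATF6 (0.33 ± 0.08) were the other risen members, and ATF6 overlapped between groups. Neither was called without DMSO replicate 3. HSPA5, the main lumenal chaperone, had 130, 120 and 115 CPM against 137, 120 and 101 CPM in DMSO (0.02 ± 0.14), beside 0.60 at 6 h. Of 20 tested cytosolic tRNA synthetases, 1 rose at 18 h, the tryptophanyl enzyme WARS1 (0.35 ± 0.09, and 0.19 without DMSO replicate 3, not called), beside 9 at 6 h. Without that library EPRS1, the glutamyl-prolyl enzyme, was called higher (0.31). Of 24 p53 targets 1 rose, the death receptor FAS (0.42 ± 0.12), beside 7 at 6 h, and FAS was called in 1 of the 6 fits that left out a library. TP53I3, a quinone oxidoreductase among these targets, stood at -0.33 at 18 h, which did not pass, and at 1.07 at 6 h (difference -1.40 ± 0.27, edgeR adjusted p = 0.00356).

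A minority of the tested genes of the late cell cycle rose at 18 h. Of 30 tested G2/M and mitosis genes, 6 rose, beside 1.66% of all tested genes, and none fell (median log2 change 0.19). In 17 of the 30 all photocaged libraries lay above all DMSO libraries, which held for 10.7% of all tested genes. At 6 h none of the 30 had risen and 7 had fallen (median -0.13), beside 1.26% of all tested genes that fell then. The difference between the times was called in 8, all higher at 18 h, beside 0.351% of all tested genes. The 8 were CCNB1, AURKA, BUB1, CENPF, CENPA, TOP2A, DLGAP5 and ECT2. TOP2A, the DNA topoisomerase of dividing cells, is shown with its promoter, from 250 bases before to 50 after the gene start (RefSeq, GRCh38.p14, chr17:40417847-40418146, minus strand), with the cell cycle homology region, TTTGAA on either strand, in capitals.
TOP2A: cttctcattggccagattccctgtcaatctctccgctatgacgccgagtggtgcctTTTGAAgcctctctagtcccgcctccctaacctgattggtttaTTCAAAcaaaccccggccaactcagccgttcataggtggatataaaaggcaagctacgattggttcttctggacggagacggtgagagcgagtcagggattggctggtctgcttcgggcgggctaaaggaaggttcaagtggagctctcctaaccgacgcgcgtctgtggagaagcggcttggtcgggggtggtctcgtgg
That motif stood in 17 of the 25 tested members with a promoter in the table and in 3 of the 6 that rose (CENPF, ECT2 and TOP2A), against 15.4% of 27305 promoters.

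CCNB1, the cyclin of mitotic entry, had 170, 157 and 165 CPM with photocaged ibufenac and 131, 146 and 125 CPM with DMSO at 18 h (0.29 ± 0.07, edgeR adjusted p = 0.0110). At 6 h it had 154, 157 and 152 CPM against 189, 189 and 183 CPM in DMSO, and the difference between the changes was 0.57 ± 0.10 (edgeR adjusted p = 0.000513). The groups did not overlap at either time. In DMSO, CCNB1 was lower at 18 h than at 6 h in every library, which is part of this difference. TOP2A had 555, 516 and 558 CPM against 428, 456 and 454 CPM in DMSO (0.28 ± 0.07, edgeR adjusted p = 0.0178). ECT2, an exchange factor needed for cytokinesis, had 118, 119 and 120 CPM against 88.7, 99.7 and 95.1 CPM in DMSO and rose by 0.33 ± 0.07 in all 6 fits that left out a library. CCNA2, the cyclin of S and G2 phases, rose by 0.34 ± 0.08, the checkpoint kinase BUB1 by 0.26 and the kinetochore protein CENPF by 0.31. Without DMSO replicate 3, 3 of the 30 were called, and 4 after removal of GC and length trends. CCNB1 was in neither set (0.24 and 0.19), and TOP2A (0.17 after that removal) was not in the second.

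Among genes of the earlier phases the calls were lower. Of 30 tested G1/S and replication genes, none rose and 3 fell, beside 1.19% of all tested genes that fell. In 11 of the 30 all photocaged libraries lay below all DMSO libraries (10.8% over all tested genes). The fallen ones were E2F1, a transcription factor of S phase entry (-0.55 ± 0.12), the licensing factor CDT1 (-0.78 ± 0.21) and the helicase subunit MCM2 (-0.44 ± 0.12). MCM2 had 246, 311 and 318 CPM with photocaged ibufenac and 405, 402 and 382 CPM with DMSO. None of these 3 was called without photocaged replicate 1, the library with the lowest MCM2, and the changes were then -0.50, -0.61 and -0.33. After removal of GC and length trends E2F1 was at -0.21 and not called. Of 25 histone genes, 2 linker histones fell, H1-2 (-0.39 ± 0.10) and H1-3 (-0.75 ± 0.17), and 15 lay wholly below DMSO. H1-2 was at -0.07 after removal of GC and length trends, and not called. The median histone change was -0.48, and -0.17 with GC and length trends removed. Abundant noncoding RNAs had a median change of -0.56 (9 of 13 wholly below DMSO, none called), which became -0.08 with those trends removed.

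**Figure D4:**
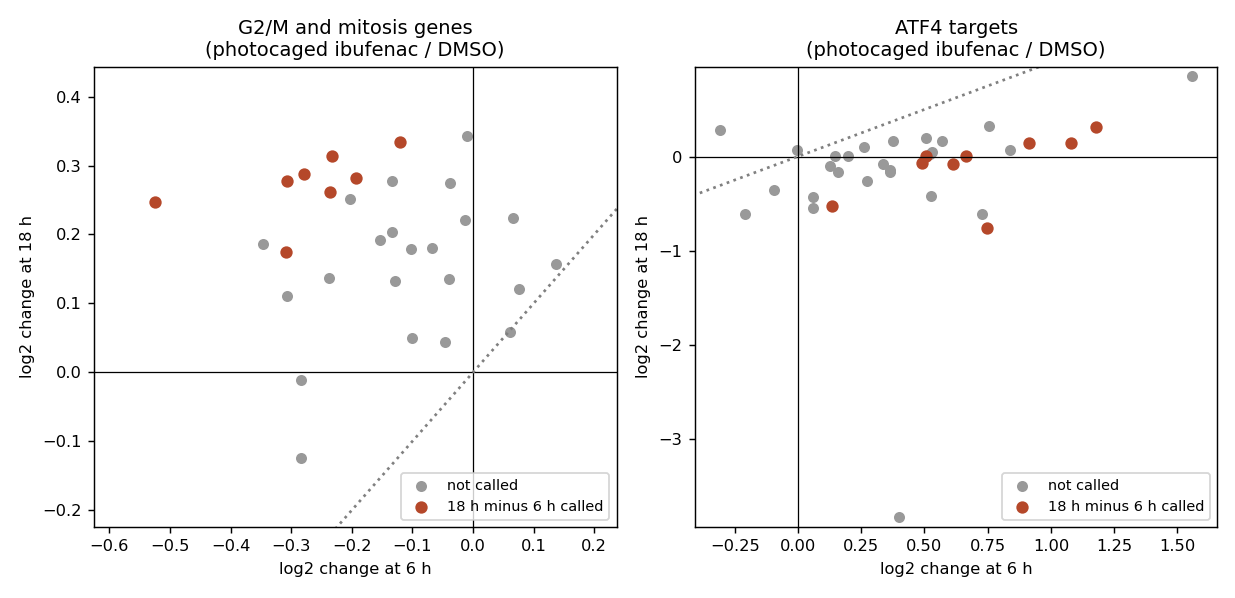
Log2 change at 18 h against log2 change at 6 h for the tested G2/M and mitosis genes (left) and ATF4 targets (right), both photocaged ibufenac over DMSO; coloured points passed the test of the difference between the times, and the dotted line marks equal changes. The 8 coloured G2/M genes are below 0 at 6 h and above 0 at 18 h, and the 9 coloured ATF4 targets are above 0 at 6 h and lower at 18 h. The point at the foot of the right panel is FGF21, which averaged 0.0397 CPM with photocaged ibufenac and 0.584 CPM with DMSO and did not pass.

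Some hypoxia and glycolysis genes were called lower at 18 h, and their values moved with 1 control library. Of 28 tested hypoxia targets 9 fell, beside 1.19% of all tested genes, and none rose, with a median of -0.55. Without DMSO replicate 3 the median was -0.13 and 1 gene, the histone demethylase KDM4B, was called (0.454% of genes tested then fell). BNIP3, a mitophagy receptor, had 47.2, 39.2 and 55.0 CPM with photocaged ibufenac and 57.0, 60.6 and 153 CPM with DMSO. It changed by -0.94 ± 0.19 with all libraries and by -0.32 without that one (edgeR adjusted p = 0.00311 and 0.238). The glucose carrier SLC2A1 had 32.2, 36.3 and 38.8 CPM against 50.5, 43.0 and 97.8 CPM in DMSO (-0.84 ± 0.17, and -0.39 without it). NDRG1 (-0.58 ± 0.12) and the collagen-modifying enzyme PLOD2 (-0.81 ± 0.18) were -0.24 and -0.25 without it, neither called. At 12 h, against DMSO libraries of that time, 8 of the 28 were called lower and none higher (median -0.42). Over all tested genes, 1.11% were called lower then. BNIP3 was at -0.73 there (edgeR adjusted p = 0.0304) and PLOD2 at -0.75 (edgeR adjusted p = 0.0204), while NDRG1 (-0.22) and SLC2A1 (-0.34) did not pass. At 6 h 2 of the 28 were called lower (median -0.28), beside 1.26% of all tested genes.

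Of 17 glycolysis genes 7 fell, beside 1.19% of all tested genes, and none rose (median -0.30). Wholly below DMSO lay 12 of the 17, beside 10.8% of all tested genes. Without DMSO replicate 3 the median was -0.18 and 1 gene was called, PFKP, the platelet form of phosphofructokinase. PFKP had 22.9, 28.6 and 32.9 CPM with photocaged ibufenac and 43.2, 40.7 and 70.8 CPM with DMSO (-0.88 ± 0.16, edgeR adjusted p = 0.00106, and 0.0480 without that library). The aldolase ALDOA had 338, 430 and 529 CPM against 660, 658 and 878 CPM in DMSO (-0.76 ± 0.18, and -0.61 without it). Lactate dehydrogenase LDHA (-0.54 ± 0.14) was -0.16 without it, phosphoglycerate kinase PGK1 (-0.48 ± 0.11) was -0.22 and pyruvate kinase PKM (-0.33 ± 0.08) was -0.25, none of them called. These last 3 were the glycolysis genes called lower at 12 h (LDHA -0.74, PGK1 -0.55 and PKM -0.34), beside 1.11% of all tested genes. The median of the 17 was then -0.14. Reads of these enzymes may be shared with processed copies. CXCR4, a chemokine receptor, likewise was called lower (-1.23 ± 0.27) and not without that library (-0.75, edgeR adjusted p = 0.134).

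**Figure D5:**
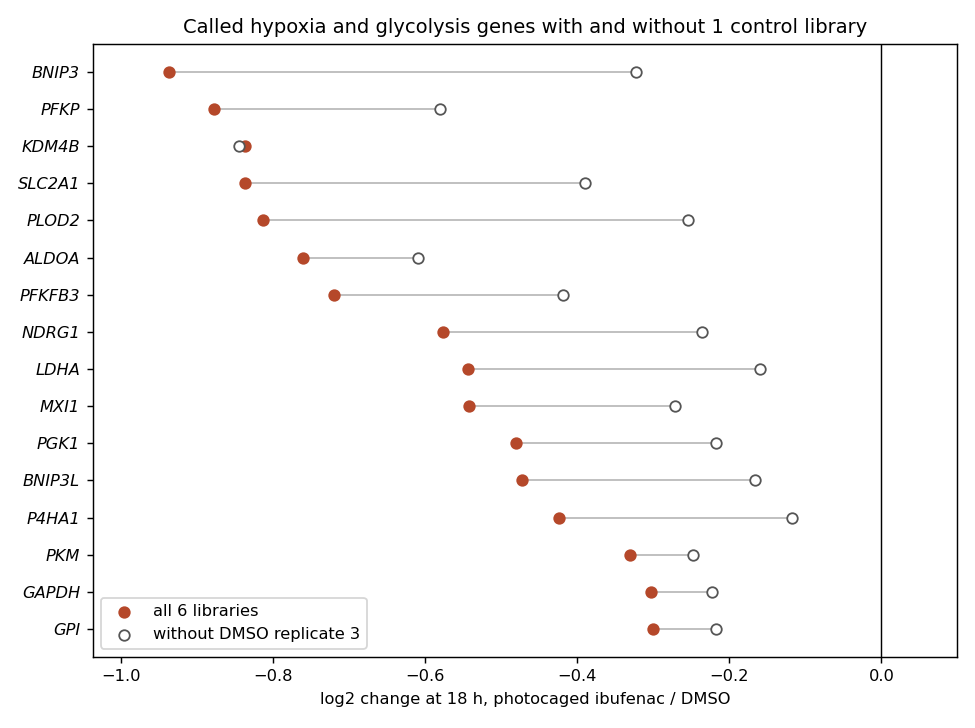
Log2 change at 18 h, photocaged ibufenac over DMSO, of the 16 hypoxia and glycolysis genes called lower, with all 6 libraries (filled) and without DMSO replicate 3 (open). All 16 stay below 0 without that library, BNIP3 moves to -0.32 and LDHA to -0.16, and KDM4B stays at -0.84.

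Of 24 immediate early genes 3 fell, beside 1.19% of all tested genes, and none rose. JUN, a subunit of AP-1, had 99.9, 115 and 113 CPM with photocaged ibufenac and 180, 150 and 175 CPM with DMSO, and fell by 0.63 ± 0.11 in all 6 fits that left out a library (edgeR adjusted p = 0.000880). DUSP1, a MAP kinase phosphatase, had 18.5, 20.5 and 18.6 CPM against 29.7, 28.4 and 28.5 CPM in DMSO (-0.59 ± 0.14), beside 0.25 at 6 h (difference -0.84 ± 0.19, edgeR adjusted p = 0.0190). MYC fell (-0.57 ± 0.11) but was not called without DMSO replicate 3 (-0.34). Of 8 AhR targets 2 rose (median 0.41), beside 1.66% of all tested genes. They were TIPARP, an ADP-ribosyltransferase, and NQO1. TIPARP had 54.8, 56.7 and 62.6 CPM against 43.6, 39.8 and 49.4 CPM in DMSO (0.39 ± 0.09, edgeR adjusted p = 0.00670). CYP1B1, a cytochrome P450, lay wholly above DMSO and did not pass (0.42 ± 0.18). Of 8 genes on the arrestin list, which also holds the transcription factors MLXIP, MLXIPL and MLX, 1 rose and 1 fell. Over all tested genes, 1.66% rose and 1.19% fell. The risen gene was ARRDC3 and the fallen one ARRDC1 (-1.0 ± 0.22). TXNIP had 23.7, 23.3 and 20.9 CPM against 22.3, 32.6 and 12.2 CPM in DMSO, with the DMSO libraries on both sides (0.02 ± 0.18).

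PTGS1 and PTGS2 are the cyclooxygenases that drugs of this class inhibit. PTGS1 was near the limit of detection and PTGS2 was low. The 17 listed prostaglandin genes summed to 254, 245 and 242 CPM with photocaged ibufenac and 237, 246 and 266 CPM with DMSO. PTGS1 averaged 0.704 CPM with photocaged ibufenac and 0.292 CPM with DMSO, and neither its change nor that of PTGS2 passed. PTGS2 averaged 2.16 CPM with photocaged ibufenac and 1.95 CPM with DMSO. Of the 13 tested genes, the prostaglandin E receptor PTGER3 rose (1.60 ± 0.47), with 1.76, 2.48 and 1.43 CPM against 0.369, 0.791 and 0.707 CPM in DMSO, and was called in 1 of the 6 fits that left out a library. None of 14 genes of acyl glucuronide handling and drug efflux was called. Nor was any of 32 proteasome genes, 15 NF-kB targets, 23 interferon genes, 19 YAP and TEAD targets, 19 clock genes, 24 autophagy and lysosome genes, 16 snoRNA host transcripts or 15 mitochondrial genome transcripts. After removal of GC and length trends, 1 proteasome gene was called higher and 1 NF-kB target lower. Of the autophagy and lysosome genes, 1 was then called higher and 1 lower. Without DMSO replicate 3, 2 clock genes were called, the nuclear receptor NR1D2 (0.36) and the period gene PER2 (-0.55). A single member was called in each of these 5 further lists: the heat shock gene HSPA1B (-0.93 ± 0.26, near-identical to HSPA1A), the cholesterol enzyme DHCR7 (-0.47 ± 0.11), ME1 of the fatty acid list, the zinc carrier SLC30A9 (0.30 ± 0.07) and FAS of the apoptosis list. Of these 5, ME1 alone was called in every fit that left out a library. Of 45 oxidative phosphorylation genes 22 lay wholly below DMSO (10.8% over all tested genes) and 2 fell (1.19%), SDHA (-0.30 ± 0.08) and COX6A1 (-0.44 ± 0.13). None of the 45 was called without DMSO replicate 3, and 6 were called lower after removal of GC and length trends. Of 43 ribosomal protein genes 15 lay wholly below DMSO and 1 fell, RPS15 (-0.54 ± 0.14), beside the same shares of all genes. None of the 43 was called without DMSO replicate 3, and 3 were called lower after removal of those trends, without RPS15 among them. GNG2, a G protein subunit (0.84 ± 0.43), and the cadherin CDH3 (0.90 ± 0.41) lay wholly above DMSO and did not pass.

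Photocaged ibufenac was set against photocaged ibuprofen at 18 h, 1 pair of compounds in the same form and at the same time that differ by the α-methyl group. Here edgeR called no gene (0.0% of 19352), with 577 at an unadjusted p under 0.05, and DESeq2 called 1. TXNRD1 had 170, 162 and 158 CPM with photocaged ibufenac and 136, 141 and 148 CPM with photocaged ibuprofen, groups that did not overlap, and the difference was 0.20 with a 95% interval of 0.08 to 0.33 before adjustment. FAM136A, a mitochondrial protein, also differed by 0.20 (0.08 to 0.33) and did not pass. For RARB the difference was -0.29 (interval -0.78 to 0.19), for XBP1 0.09 (-0.04 to 0.22), for IRS4 -0.17 (-0.38 to 0.05), for GCLM 0.06 (-0.15 to 0.26) and for HMOX1 0.20 (-0.09 to 0.50). These intervals bound the difference and do not show that the compounds act alike.

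Against the ibufenac bolus at 18 h, whose dose is not given, 14 genes differed (0.0723%), 4 higher (0.0207%) and 10 lower (0.0517%) with the photocaged form. TXNRD1 had 170, 162 and 158 CPM with photocaged ibufenac and 125, 119 and 120 CPM with the bolus (0.43 ± 0.06, edgeR adjusted p = 0.000114). TIPARP (0.47 ± 0.09), FAM136A (0.32 ± 0.06) and the selenophosphate synthetase SEPHS1 (0.29 ± 0.06) were the other higher genes. RARB had 4.28, 4.59 and 3.28 CPM against 10.8, 9.18 and 9.78 CPM with the bolus (-1.29 ± 0.24, edgeR adjusted p = 0.00608). The glucose carrier SLC2A3 (-1.12 ± 0.25), carbonic anhydrase CA2 (-0.63 ± 0.11), ADAMTS1 (-0.60 ± 0.10) and SOX4 (-0.55 ± 0.10) were also lower. The count was 7 without bolus replicate 3 and 3, 5 and 4 without photocaged replicates 1, 2 and 3. The bolus itself differed from the same DMSO libraries in 973 genes (5.03%).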

How the data were processed

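Total RNA of HEK293T cells was depleted of ribosomal RNA and sequenced with a stranded kit, per the labels' protocols. The deposited table gives the authors' expected counts, not normalized, for 58336 Ensembl genes. They were rounded for the models, since 22.6% of the values of at least 1 had decimals. No source at hand names the aligner, the counter, its strand setting or the genome build. A deposited FPKM table was not used. Names came from current symbols (57754 genes) or else GENCODE release 29 (462), and 120 genes stayed unnamed.

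A quasi-likelihood model was fitted with edgeR 4.0.16 under R 4.3.3 to all 63 libraries (12.1 to 38.4 M counts, median 19.6 M) in 21 groups, after filterByExpr with a minimum count of 10 (19352 genes) and TMM scaling (factors 0.908 to 1.11). Residual degrees of freedom were 42, prior degrees of freedom 8.18 and the common biological coefficient of variation 0.159. CPM use TMM library sizes, and a difference is log2 with its standard error. Tests were two-sided, Benjamini-Hochberg adjusted over all tested genes at 0.05. The 4 comparisons were photocaged ibufenac with DMSO at 18 h, the 18 h change minus the 6 h change, and photocaged ibufenac with photocaged ibuprofen and with the bolus at 18 h. Changes at 6 h and 12 h and of the other arms came from the same fit. Simulated data were tested for the comparison with DMSO at 18 h over 19352 genes. Of genes planted at 1.25-fold 18% were found, at 1.5-fold 46%, at 2-fold 70% and at 2.5-fold 90%, with 8 false calls. Only genes above a minimum mean count were planted. The simulated counts varied independently, without shifts shared by many genes of a library, so the 8 false calls do not measure errors in the real data.

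Members and gene lists were chosen with earlier results of these data known. Named genes were, for photocaged ibufenac against DMSO, those of largest change (at least 1 CPM, groups apart) and of smallest p, up to 4 called members of each list by smallest p, fixed genes, and the extremes of the other comparisons, with names left out from the lower end. A few items are not reported here. KDM4B, TKT, AURKA, DLGAP5, FGF21 and other list members named beside a count were chosen after their values were seen. Alternatives were RLE factors, DESeq2 1.42.0, other count filters, fewer libraries in the fit, a block for replicate number and the omission of single libraries. Removing GC and length trends, taken from each gene's longest GENCODE transcript, was added after seeing the data, as was the reading of results without DMSO replicate 3. No library pair within these groups was a duplicate. Promoter windows were matched by symbol.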

Additional observations from a re-analysis of the deposited data

Results flagged for a closer look

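The change from DMSO with photocaged ibufenac differed between 18 h and 6 h in 123 genes, by edgeR's test of the difference itself, and these include genes described above. Unless stated otherwise, values that follow are the log2 change at 18 h minus that at 6 h. Stress and redox genes were lower at 18 h: HMOX1 -1.22, SLC7A11 -0.87, ASNS -0.77, CHAC1 -1.51, STC2 -0.66, XBP1 -0.40, TP53I3 -1.40 and DUSP1 -0.84. Of these, STC2 was not called at 6 h (log2 change 0.14), and its mean DMSO level was 124 CPM at 6 h and 158 CPM at 18 h. Without DMSO 18 h replicate 3 its log2 change at 18 h was -0.29 and not called. Mitotic genes were higher at 18 h: CCNB1 0.57, TOP2A 0.47, ECT2 0.46, BUB1 0.50, CENPF 0.55, AURKA 0.48, DLGAP5 0.58 and CENPA 0.77. Such a difference takes in the DMSO levels of both times, and CCNB1 was lower at 18 h than at 6 h in every DMSO library. Of other genes, CD24 (-3.00), MUC19 (-1.96), TRIM5 (-1.79) and PCDH10 (-0.84) were lower. SDHAP4 (0.98), SLC25A25-AS1 (0.89), PPM1H (0.74), GMFB (0.63), METTL15 (0.56), KIAA0586 (0.55) and FAM136A (0.47) were higher. Mean CPM of GMFB at 6 h and 18 h was 94.9 and 90.0 with photocaged ibufenac, and 104 and 63.7 with DMSO. For FAM136A it was 97.9 and 92.8 against 107 and 73.4, and for METTL15 32.8 and 33.9 against 31.9 and 22.4. For KIAA0586 it was 50.8 and 56.4 against 50.2 and 38.1. Between the times the DMSO level of these genes moved more than the photocaged level. PCDH10 was also lower than DMSO at 18 h, and GMFB, METTL15, KIAA0586 and FAM136A were also higher than DMSO at 18 h and not called at 6 h.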

How the results depend on the processing

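Against DMSO at 18 h, 553 genes were called. The count was 987 with DESeq2, 1343 with no low-count filter (293 higher and 1050 lower), 248 with only the 18 h libraries and 1 with only the 6 libraries. Leaving out 1 library gave 105 to 611. RLE factors gave 583, a minimum count of 50 gave 750 and removal of GC and length trends 522. For the 18 h change minus the 6 h change, with 123 calls, the count was 203 with DESeq2, 297 with no low-count filter, 10 with only the groups compared, 193 with GC and length trends removed, and 40 to 126 with 1 library left out. Against photocaged ibuprofen, with 0 calls by edgeR and 577 genes at an unadjusted p under 0.05, the count was 1 with DESeq2, 53 with no low-count filter, 1 with only the groups compared and 0 to 1 with 1 library left out. Against the bolus, with 14 calls, the count was 41 with DESeq2, 107 with no low-count filter, 0 with only the groups compared, 3 with only the 18 h libraries, 31 with GC and length trends removed and 3 to 10 with 1 library left out. Deviations of same-numbered photocaged and DMSO libraries had correlations of -0.006, 0.021 and 0.023 at 18 h and 0.098, -0.045 and 0.069 at 6 h. These values cannot show whether the numbers mark pairs, and the labels do not say. With a replicate block the counts were 530, 121, 0 and 15. Of 67 called genes described by name none changed sign, and 22 kept their call in every setting other than the 6 libraries alone. The sign turned for 5 genes with no call at 18 h. With 1 library left out, HMOX1 ran from -0.0057 to 0.22, HSPA5 from -0.085 to 0.13, TXNIP from -0.27 to 0.39, SESN2 from -0.079 to 0.30 and PTGS2 from -0.13 to 0.48. After removal of GC and length trends HSPA5 was at -0.045 and TXNIP at -0.072. The causes were not tested. Fits that leave a group with fewer libraries assume the remaining ones vary like the other groups. At 16 to 20.9 M counts, 46% of genes planted at 1.5-fold and 70% at 2-fold were found in the simulated data. Changes of these sizes or smaller were thus often missed in the simulation. Its counts varied independently, and only genes above a minimum mean count were planted. The share missed in the real data was not measured.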
